A study of Homo sapiens with 6 samples.

Results

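INPPL1, VEGFA, LRP1, PRKCE, YES1 and SRC are 6 genes that have been reported as targets of hsa-miR-205-5p and that belong neither to the regulators of epithelial-mesenchymal transition nor to the ERBB receptors. They were chosen by name, as were the lists of related genes below, with earlier results of these data known. All probes whose transcript is a RefSeq transcript of one of them were taken, which gave 9 of the 50599 probes on the array. Of these, 8 passed the filter on dim probes and were tested among 18468 probes of the whole array. RNA came from MDA-MB-231, a human breast cancer cell line with mesenchymal features. Cells were transfected with the precursor of hsa-miR-205-5p, the precursor of hsa-miR-214-3p or a scrambled control precursor, and RNA was collected after 72 h. Each group had 2 arrays, and the control cells were transfected in the same way, so what the precursors are compared with is a precursor without a chosen target. The hsa-miR-214-3p arrays serve as the second comparison, with a precursor for which these 6 genes were not selected. The labels do not say that the 2 replicates of a group came from separate cultures, so the p-values measure the spread between these samples, which may be technical. The arrays measured transcripts of genes, so neither the level of the mature miRNAs nor any protein was measured here.

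A microRNA is a short RNA that is loaded into an Argonaute protein and guides it to messenger RNAs, mostly through pairing of its seed, bases 2 to 8, with the 3′ untranslated region. A paired transcript is translated less and is often degraded, so that an array can show a lower level of a target, while a target held down in translation alone keeps its transcript. miR-205 is known for its expression in epithelial and basal cells of the breast and prostate and for its loss in mesenchymal tumor cells. The mature sequences are shown because the seeds decide which transcripts each miRNA can pair with. They were taken from RefSeq (GRCh38.p14), each 22 bases long, with the seed in capitals.
hsa-miR-205-5p: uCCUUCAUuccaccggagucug
hsa-miR-214-3p: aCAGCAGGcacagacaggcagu
hsa-miR-205-5p lies on the + strand at chr1:209432166-209432187 and hsa-miR-214-3p on the − strand at chr1:172138816-172138837. Their seeds share the same base at 1 of 7 positions, so they belong to different seed families. The site that pairs with the whole seed is AUGAAGG for hsa-miR-205-5p and CCUGCUG for hsa-miR-214-3p. Whether the transcripts of the 6 genes hold such sites was not analysed here.

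All values below are normalized log2 signals, that is log2 of the processed signal of a probe minus the 75th percentile of its array, so that 0 is the 75th percentile and a difference of 1 is 2-fold. On an array, between 35.4% and 42.2% of the spots stood well above background, with 0 saturated spots. The median difference over all tested probes was 0.05 for hsa-miR-205-5p against the control and −0.01 for hsa-miR-214-3p against the control. Scaling each array to its median instead moves all probes of a comparison by the same amount, and brought these medians to −0.34 and −0.17. Replicate arrays differed by a root mean square of 0.51 with hsa-miR-205-5p, 0.34 with hsa-miR-214-3p and 0.67 in the control, so the control arrays were the most spread. Of the markers listed for MDA-MB-231, VIM, CD44, KRT18, CAV1 and EGFR were well above background on all 6 arrays and SPARC on 0, while ESR1, PGR and ALB, markers that the line should lack, were above it on 0. The epithelial genes CDH1 and EPCAM, listed as low or absent, were above background on all 6 arrays and were higher with hsa-miR-205-5p than in the control, by 1.96 and 2.40 (limma, adjusted p = 0.008 and 0.0088). PTPRC, of leukocytes, was above background on 2 arrays and was not tested. PECAM1, of endothelium, read −2.08 and −2.49 with hsa-miR-205-5p, −0.41 and −0.47 in the control, and −1.21 and −1.42 with hsa-miR-214-3p. It was above background on both control arrays, on 1 hsa-miR-214-3p array and on 0 with hsa-miR-205-5p, so it passed the filter only through the control, where it was highest, and no test of it is given. In such bulk RNA, fewer cells of a type and less RNA per cell cannot be told apart. The part of these marker changes in the results below was not tested.

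With hsa-miR-205-5p, INPPL1 was the member that fell, on both of its probes. A probe was called when its adjusted p was under 0.05 and its change at least 2-fold. Of the 8 member probes tested, 2 were called lower than in the control and 0 higher, beside 8.05% of all tested probes called lower and 4.14% called higher, which are 1486 and 764 probes (2912 and 276 after scaling to the median). VEGFA, LRP1, PRKCE, YES1 and SRC were not called. Of the 8 probes, 5 lay below 0 and 3 above, from −1.36 to 0.71, with a median of −0.15. In 5 of the 8 the arrays of both groups did not overlap, as in 62.3% of all tested probes. With hsa-miR-214-3p, 0 member probes were called lower and 0 higher (limma), beside 1.68% and 0.991% of all tested probes. At unadjusted p, 1 was called, the VEGFA probe. Their differences ran from −1.33 to 0.80 with a median of 0.23, and 7 of the 8 did not overlap, beside 55.3% of all tested probes. The second LRP1 probe is among these 7, and it passed the filter only through the hsa-miR-214-3p arrays. The comparisons share the control arrays. Set directly against hsa-miR-214-3p, where the control arrays enter the estimate of the spread but not the value, hsa-miR-205-5p had 3 member probes lower, both of INPPL1 and that of PRKCE, and 1 higher, that of VEGFA. Over all tested probes the shares were 11.5% lower and 8.37% higher, and 7 of 8 member probes against 78.3% of all probes did not overlap.

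**Figure D1:**
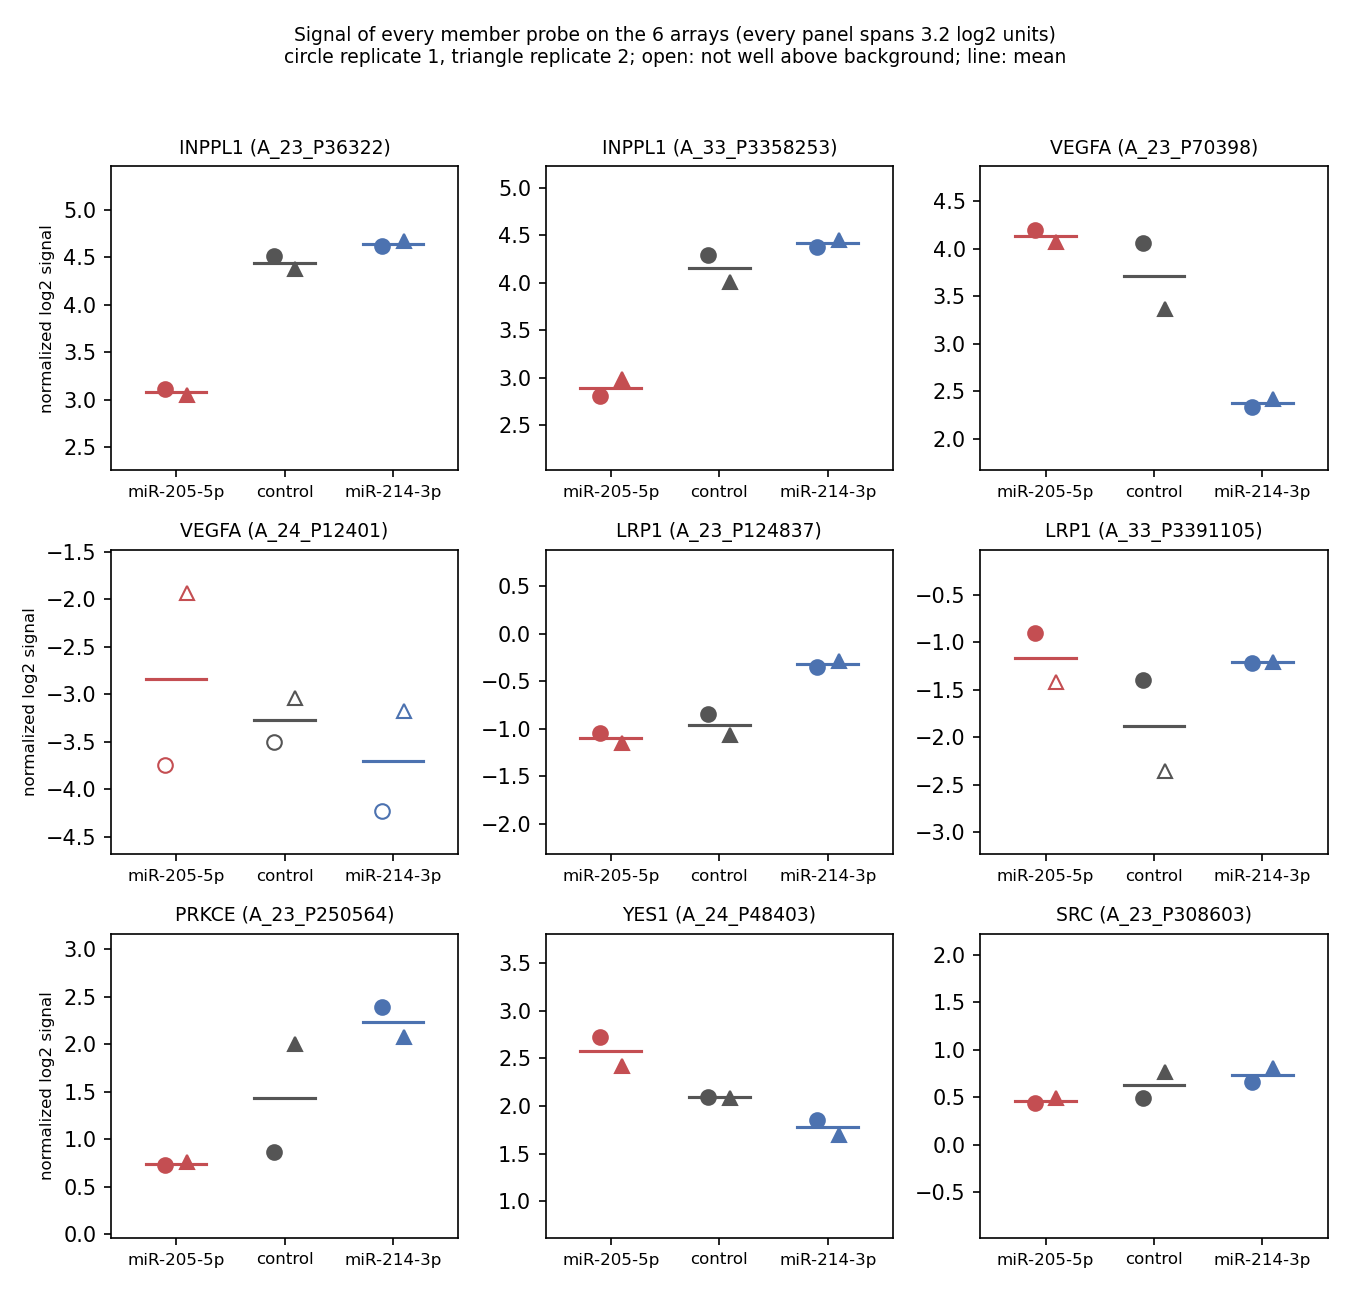
Normalized log2 signal (vertical axis) of each of the 9 member probes on the 6 arrays, by group (horizontal axis). Circles are replicate 1, triangles replicate 2, open symbols are not well above background and lines are group means; INPPL1 is low with hsa-miR-205-5p on both probes, and the control replicates of PRKCE and VEGFA lie far apart.

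INPPL1 encodes SHIP2, a lipid phosphatase that removes the 5-phosphate from phosphatidylinositol trisphosphate, the lipid that phosphoinositide 3-kinase makes and that recruits AKT to the membrane. On its first probe (A_23_P36322), the arrays read 3.12 and 3.05 with hsa-miR-205-5p, 4.52 and 4.37 in the control, and 4.61 and 4.67 with hsa-miR-214-3p. Both hsa-miR-205-5p arrays were far below the other 4, which lay within a narrow band. The fall against the control was −1.36 (standard error 0.154, 95% interval −1.75 to −0.97, limma adjusted p = 0.00914), which is 2.57-fold. Among all tested probes, 6.66% changed by as much or more in that direction. The second probe (A_33_P3358253) read 2.80 and 2.99 with hsa-miR-205-5p, 4.29 and 4.01 in the control, and 4.38 and 4.45 with hsa-miR-214-3p. It showed the same order with similar steps, a fall of −1.26 (standard error 0.179, limma adjusted p = 0.0133), or 2.39-fold. Both probes read the same transcript, NM_001567, on the same RNA, so they repeat the measurement and are not separate samples.

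hsa-miR-214-3p did not move INPPL1 beyond the spread. Its differences from the control were 0.20 and 0.26 on the 2 probes (limma, adjusted p = 0.499 and 0.441), with 95% intervals of −0.19 to 0.58 and −0.19 to 0.71. The direct difference between the precursors was −1.56 on the first probe (95% interval −1.94 to −1.17, adjusted p = 0.00415) and −1.52 on the second (adjusted p = 0.00541). Levels of INPPL1 thus ordered as hsa-miR-205-5p, control and hsa-miR-214-3p, and the last pair did not differ beyond its spread. Without hsa-miR-205-5p replicate 2, the fall was −1.33 and −1.35 but was not called (adjusted p = 0.06 and 0.0639), as limma then called 0 of all probes. The call on the first probe held without any other single array, and that on the second probe held only without a control array. With no filter on dim probes neither probe was called by limma (adjusted p = 0.0549 and 0.0673). In the limma fit on only the 4 arrays compared only the first was (adjusted p = 0.0446 and 0.0535). Both settings also called fewer of all probes than the main fit. With the methods' t-test after adjustment neither probe was called (adjusted p = 0.15 and 0.184), and 0 of all probes were.

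VEGFA encodes vascular endothelial growth factor A, the secreted ligand that drives sprouting of blood vessels, and it is induced by low oxygen. Its detected probe (A_23_P70398) read 4.20 and 4.08 with hsa-miR-205-5p, 4.07 and 3.36 in the control, and 2.34 and 2.43 with hsa-miR-214-3p. The hsa-miR-214-3p arrays were the lowest and lay close together, while the hsa-miR-205-5p arrays lay just above the higher control array. The difference of hsa-miR-205-5p from the control was 0.43 (95% interval −0.23 to 1.08, limma adjusted p = 0.287). Its size rested on the control arrays and the background correction: it was 0.78 without control replicate 1, 0.07 without control replicate 2 and 0.15 with normexp background correction. The common shift of scaling to the median left 0.04. With hsa-miR-214-3p the difference was −1.33 (standard error 0.262, 95% interval −1.99 to −0.68), a 2.52-fold lower level that missed the threshold after adjustment (adjusted p = 0.0646). Without scrambled control replicate 2, the lower of the control arrays, it was −1.68 and was called (adjusted p = 0.0233). The precursors differed from each other by 1.76 (95% interval 1.101 to 2.41, adjusted p = 0.00912), 3.38-fold higher with hsa-miR-205-5p. That call was lost without either hsa-miR-214-3p array (adjusted p = 0.0667 and 0.0679). The other VEGFA probe (A_24_P12401), designed on a different transcript variant, was not well above background on any array and was not tested; its readings scattered from −4.23 to −1.93 without a gap between groups.

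PRKCE encodes protein kinase C epsilon, a kinase activated by diacylglycerol that does not need calcium. Its probe (A_23_P250564) read 0.73 and 0.76 with hsa-miR-205-5p, 0.87 and 2.00 in the control, and 2.39 and 2.07 with hsa-miR-214-3p. Control replicate 1 lay beside the hsa-miR-205-5p arrays and control replicate 2 beside the hsa-miR-214-3p arrays, so the control spread of 1.14 was larger than either difference from it. Neither difference was called, at −0.69 for hsa-miR-205-5p (95% interval −1.66 to 0.28, limma adjusted p = 0.247) and 0.80 for hsa-miR-214-3p (95% interval −0.17 to 1.76, adjusted p = 0.29). Each depended on 1 control array. Without control replicate 1, PRKCE passed as lower under hsa-miR-205-5p, by −1.26 (adjusted p = 0.017), and without control replicate 2 it was called higher with hsa-miR-214-3p, by 1.36 (adjusted p = 0.0309). The direct difference between the precursors was −1.49 (standard error 0.385, 95% interval −2.45 to −0.52, adjusted p = 0.0372), 2.80-fold lower with hsa-miR-205-5p. The value uses no control array, but its error comes from all 6 arrays and so holds the control spread. The call was lost in 4 of 16 other settings, among them normexp (−1.01) and the replicate block. In the limma fit on only the 4 precursor arrays the standard error was 0.15 (adjusted p = 0.00612). With all groups it lay near the threshold and was not called without any 1 of the 4 precursor arrays (adjusted p from 0.118 to 0.168).

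**Figure D2:**
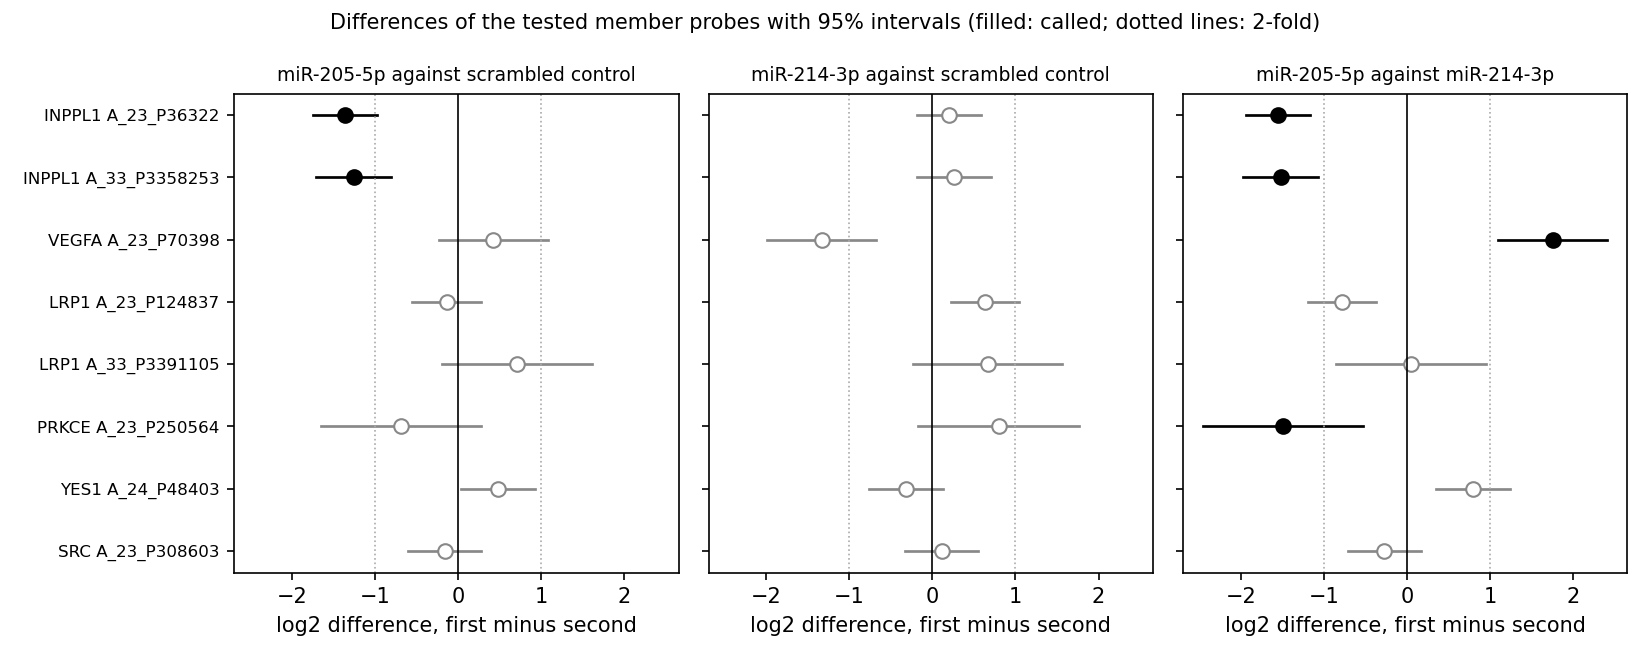
Log2 difference (horizontal axis) of the 8 tested member probes in the 3 comparisons, with 95% intervals from limma as bars and dotted lines at 2-fold. The second LRP1 probe passed the filter only through the hsa-miR-214-3p arrays. Filled points were called; in the first comparison these are the INPPL1 probes at −1.36 and −1.26, in the second there are none, and in the third they are INPPL1, VEGFA and PRKCE.

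LRP1 encodes the low density lipoprotein receptor-related protein 1, a large endocytic receptor that clears proteases, their inhibitors and matrix proteins from the cell surface. Its main probe (A_23_P124837) is printed 10 times on each array, and the mean over these spots was −1.04 and −1.15 with hsa-miR-205-5p, −0.85 and −1.07 in the control, and −0.35 and −0.29 with hsa-miR-214-3p. The hsa-miR-205-5p and control arrays overlapped, and the hsa-miR-214-3p arrays lay above both. The difference with hsa-miR-205-5p was −0.14 (95% interval −0.55 to 0.27, limma adjusted p = 0.569), so a fall of 2-fold lies outside its interval. With hsa-miR-214-3p it was 0.64 (95% interval 0.23 to 1.05, adjusted p = 0.105), and 0.25 under normexp. Between the precursors it was −0.78 (adjusted p = 0.0218), past the p threshold but under 2-fold and therefore not called. Under normexp that difference was −0.17.

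The second LRP1 probe (A_33_P3391105) was dim. It read −0.90 and −1.42 with hsa-miR-205-5p, −1.40 and −2.36 in the control, and −1.22 and −1.21 with hsa-miR-214-3p. Replicate 2 of hsa-miR-205-5p and of the control did not stand well above background, and the probe passed the filter only through the hsa-miR-214-3p arrays. Its differences from the control were 0.71 and 0.66 and are given with no test, since the probe was above background on only 1 array of each other group. For hsa-miR-205-5p the 2 probes of LRP1 pointed in opposite directions, at −0.14 and 0.71.

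YES1 and SRC encode the closely related tyrosine kinases YES and SRC, which sit at the inner face of the membrane and phosphorylate proteins of focal adhesions and cell junctions. YES1 (A_24_P48403) read 2.73 and 2.43 with hsa-miR-205-5p, 2.10 and 2.09 in the control, and 1.85 and 1.70 with hsa-miR-214-3p. The 3 groups did not overlap, and hsa-miR-205-5p arrays were the highest. The difference with hsa-miR-205-5p was 0.49 (95% interval 0.04 to 0.93), and limma's p of 0.0377 became 0.113 after adjustment. It was 0.25 under normexp, and the common shift of scaling to the median left 0.10. With hsa-miR-214-3p it was −0.32 (95% interval −0.76 to 0.13, adjusted p = 0.353). The precursors differed by 0.80 (95% interval 0.36 to 1.25, adjusted p = 0.0249), which was under 2-fold and not called. For YES1, only the outer pair in that order differed past the p threshold.

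SRC (A_23_P308603), also printed 10 times, read 0.44 and 0.50 with hsa-miR-205-5p, 0.49 and 0.77 in the control, and 0.67 and 0.81 with hsa-miR-214-3p. It was the member that varied least, and the control arrays spanned most of the range. Its differences were −0.16 with hsa-miR-205-5p (95% interval −0.60 to 0.28, limma adjusted p = 0.533), 0.11 with hsa-miR-214-3p (95% interval −0.33 to 0.55, adjusted p = 0.751) and −0.27 between the precursors (adjusted p = 0.271). A change of 2-fold lies outside each of these intervals. For hsa-miR-214-3p it was −0.03 without control replicate 1.

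The 10 spots show how well a single array reads these genes. For SRC, the spots of an array had a standard deviation between 0.07 and 0.20, with 3 spots on hsa-miR-214-3p replicate 1 and 1 on control replicate 1 left out as outliers. The median spot of SRC was 0.46 and 0.49 with hsa-miR-205-5p, and 0.46 and 0.74 in the control, so the gap between the control arrays was larger than the spread within either. For LRP1, the spread was 0.42 on both hsa-miR-205-5p arrays and between 0.14 and 0.19 on the other 4. On hsa-miR-205-5p replicate 2 only 6 of the 10 LRP1 spots were well above background, and 9 on replicate 1, against 10 on each of the other arrays. LRP1 spots ran from −1.91 to −0.48 on hsa-miR-205-5p replicate 2 and from −0.50 to −0.11 on hsa-miR-214-3p replicate 2. Spots of an array share 1 RNA sample, so their spread is that of the measurement and not of the cells.

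**Figure D3:**
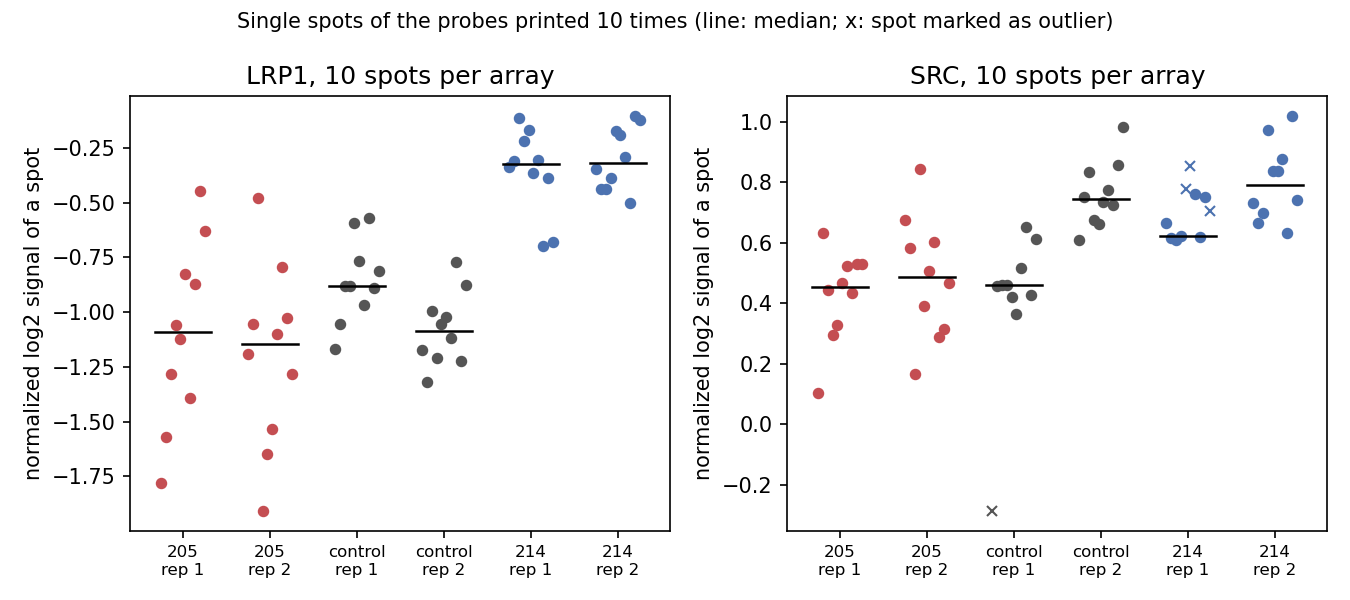
Normalized log2 signal of single spots (vertical axis) of the LRP1 and SRC probes that are printed 10 times on each of the 6 arrays (horizontal axis). Lines are medians and crosses mark outlier spots that were left out; LRP1 spots scatter most on the hsa-miR-205-5p arrays, with a standard deviation of 0.42.

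The relatives and partners of the members were examined in lists on the brightest tested probe of each gene. A gene passes the filter if it is well above background in at least 1 group. Members aside, the lists held 79 tested genes. Of these, 2 were called lower and 3 higher with hsa-miR-205-5p, and 1 lower and 1 higher with hsa-miR-214-3p. Over all 11974 genes the shares were 7.98% lower and 4.78% higher with hsa-miR-205-5p and 2.03% and 1.09% with hsa-miR-214-3p. The lists thus had no larger share called lower with hsa-miR-205-5p than all genes did. In the fit on only the 4 arrays compared, 0 of the list genes were called with either precursor. The 5 of hsa-miR-205-5p lay at limma adjusted p between 0.0507 and 0.0966. Over all 18468 probes that fit called 597 lower and 261 higher with hsa-miR-205-5p. With hsa-miR-214-3p it called 0 of all probes, so the list count could only be 0.

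The phosphoinositide 3-kinase pathway, in which INPPL1 acts, had 15 of 20 other genes tested. Among them were PIK3CA, PIK3CD, PIK3R1 and PIK3R2 of the kinase subunits, PDPK1 and the AKT kinases. The listed subunits PIK3CB and PIK3R3 did not pass the filter. Of the 15, 0 were called with either precursor (limma). At unadjusted p the count was 0 with hsa-miR-205-5p and 1 with hsa-miR-214-3p, OCRL, named after its value was seen. At the median they lay at 0.07 with hsa-miR-205-5p, with a range of −0.69 to 0.81, and at −0.06 with hsa-miR-214-3p. The median of all genes with hsa-miR-205-5p was 0.08. INPPL1 was therefore the gene of its list that was called.

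Of the 7 other SRC family kinases and regulators that were tested of 13, limma called 0 with either precursor, also at unadjusted p, and their median was 0.14 with hsa-miR-205-5p and 0.11 with hsa-miR-214-3p. LCK, FGR, BLK and FRK, kinases of the same family found mainly in blood cells or other tissues, were not well above background on any array. Of 13 tested SRC substrates, 10 lay below 0 with hsa-miR-205-5p, at a median of −0.29, and 1 was called lower. This was CRK, an adaptor that binds tyrosine-phosphorylated proteins of focal adhesions. CRK read −0.51 and −0.96 with hsa-miR-205-5p, 0.70 and 1.11 in the control, and 1.02 and 0.96 with hsa-miR-214-3p. Both hsa-miR-205-5p arrays were below the other 4, a fall of −1.63 (standard error 0.236, limma adjusted p = 0.0136), while the difference with hsa-miR-214-3p was 0.09. Under normexp the fall of CRK was −0.71, under 2-fold, and the call was lost in 4 of 15 other settings. It was also lost without hsa-miR-205-5p replicate 2 or either hsa-miR-214-3p array (adjusted p from 0.0507 to 0.0678).

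Among 10 other tested members of the protein kinase C family and its relatives, 1 was called lower and 1 higher with hsa-miR-205-5p. PRKCH, the eta isoform, which like PRKCE is activated without calcium and is known from epithelia, read −1.53 and −1.34 with hsa-miR-205-5p, −0.07 and 0.79 in the control, and 0.55 and 0.57 with hsa-miR-214-3p. It fell by 1.80 on the log2 scale with hsa-miR-205-5p (standard error 0.304, limma adjusted p = 0.0187). For PRKCH the difference shrank to −0.66 under normexp, the call was lost in 5 of 15 other settings, and it held only without 1 of the control arrays when single arrays were left out (adjusted p otherwise 0.0577 to 0.0799). PRKCZ, the atypical zeta isoform that acts in cell polarity, read 7.10 and 6.88 with hsa-miR-205-5p, 6.08 and 5.70 in the control, and 6.51 and 6.75 with hsa-miR-214-3p. Both precursors lay above the control arrays, and the rise with hsa-miR-205-5p was 1.103 (standard error 0.209, adjusted p = 0.0241), close to the limit of 2-fold. The call of PRKCZ was lost in 7 of 15 other settings, with a value of 0.91 in the table deposited by the authors, and of the 6 arrays only control replicate 1 could be left out without losing it. With hsa-miR-214-3p, limma called 0 of the 10, at unadjusted p too.

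Of 5 other VEGF ligands and receptors that were tested, PGF passed as higher after hsa-miR-205-5p. Among the same 5 genes, limma called 0 with hsa-miR-214-3p, at unadjusted p too. PGF, placental growth factor, a ligand of the receptor FLT1, read 5.20 and 5.12 with hsa-miR-205-5p, 4.07 and 3.63 in the control, and 3.39 and 3.57 with hsa-miR-214-3p. The rise was 1.31 (standard error 0.206, adjusted p = 0.0158). It was lost in 4 of 15 other settings and without any 1 of the 4 precursor arrays (adjusted p from 0.0557 to 0.0771). FLT1, KDR and FLT4, the receptors that carry the VEGF signal in endothelium, were not well above background on any array. Of 12 other tested hypoxia-induced genes, limma called 0 with either precursor. At unadjusted p, 0 were called with hsa-miR-205-5p and 1 with hsa-miR-214-3p, which was ADM. With hsa-miR-214-3p these genes ran both ways, 3 of the 12 below 0, from −0.83 for SLC2A1 to 1.18 for ADM, with a median of 0.33. ADM and SLC2A1 were named after their values were seen.

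In the LDL receptor family and among the partners of LRP1, 17 of 20 other genes were tested. With hsa-miR-205-5p, VLDLR, the very low density lipoprotein receptor, was called higher and 0 were called lower. VLDLR read 1.74 and 1.90 with hsa-miR-205-5p, 0.19 and 0.99 in the control, and 1.73 and 1.79 with hsa-miR-214-3p. All 4 precursor arrays lay above both control arrays, with differences of 1.23 (limma, adjusted p = 0.0394) and 1.17 (adjusted p = 0.0981, not called). The VLDLR call was lost in 7 of 15 other settings, with a value of 0.54 under normexp, and was kept without control replicate 2 but lost without any other single array; without control replicate 1 the value was 0.83.
With hsa-miR-214-3p, LRP10 was called lower. LRP10, a smaller receptor of the family, read 3.35 and 3.37 with hsa-miR-205-5p, 3.83 and 3.44 in the control, and 2.38 and 2.22 with hsa-miR-214-3p, a fall of −1.34 (limma, adjusted p = 0.0391). This call did not hold in the limma fit on only the 4 arrays compared (adjusted p = 0.0914). It was also lost with the replicate block (adjusted p = 0.0858) and with no filter on dim probes (adjusted p = 0.178). Each of these settings called 0 of all probes with hsa-miR-214-3p, so the loss is not particular to LRP10. Of the 6 arrays only control replicate 2 could be left out without losing the call. Leaving out any other array lost the calls of all probes in this comparison too.

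**Figure D4:**
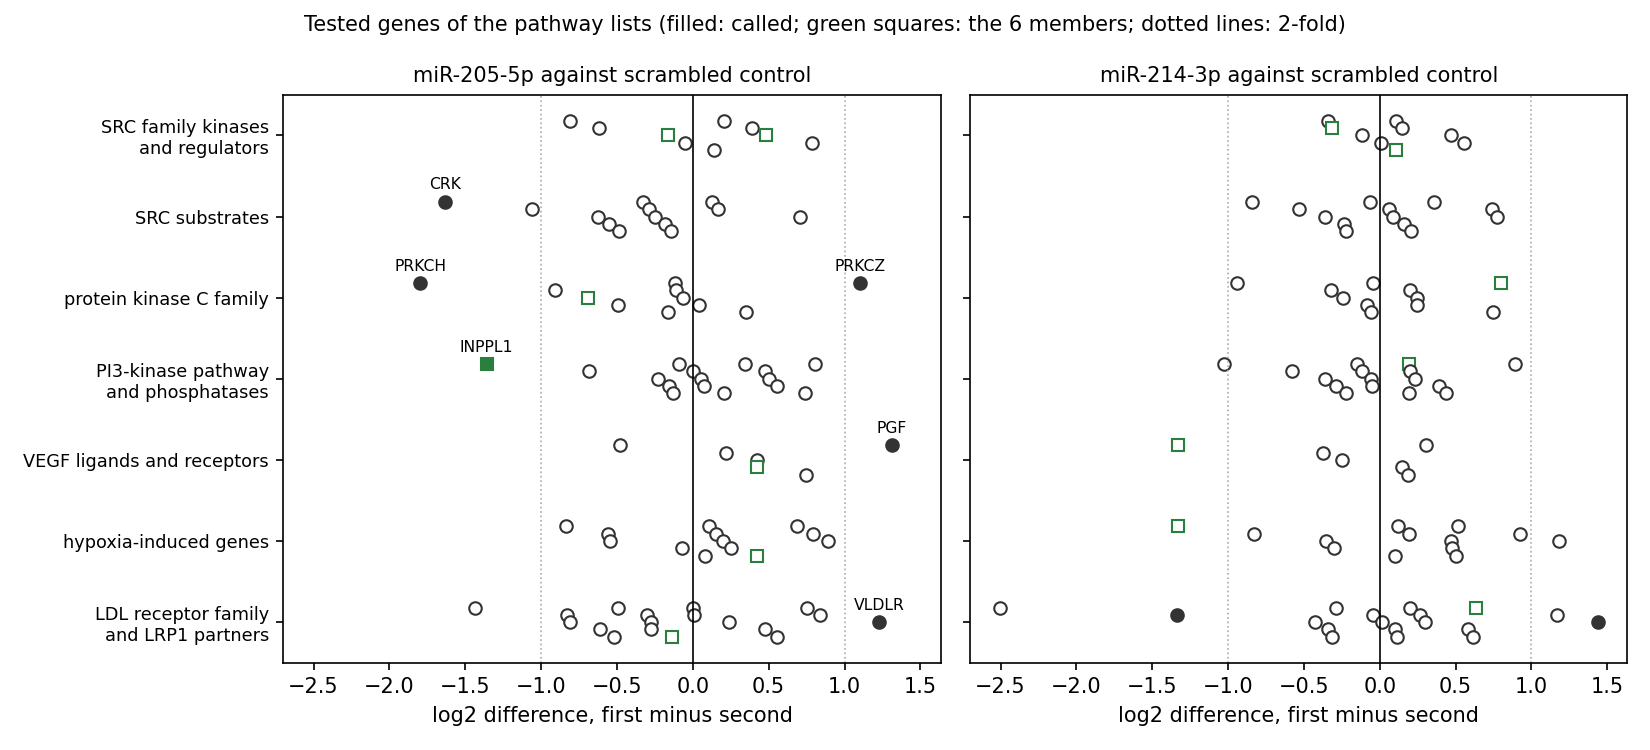
Log2 difference from the scrambled control (horizontal axis) of every tested gene of the 7 lists (vertical axis), for each of the precursors; dotted lines are at 2-fold. Filled symbols were called, those with hsa-miR-205-5p are named, and green squares are the members; INPPL1, CRK and PRKCH are the called genes on the low side with hsa-miR-205-5p.

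The genes whose pattern over the 6 arrays was most like that of a member were found by the root mean square difference after each probe was centred on its own mean, among 11973 other genes. For INPPL1, whose signal varied with a standard deviation of 0.76 over the arrays, these were PHB1 at 0.0615 and COG4 at 0.0628. For VEGFA they were ATP2B4 at 0.0608 and CABP5 at 0.0913, and for PRKCE, with its split control arrays, CNPY4 at 0.0924. LRP1 was most like TNFRSF12A at 0.0601 and DDX39A at 0.0615, and YES1 most like SEC61G at 0.0501 and ABHD17C at 0.0565. SRC, which varied with a standard deviation of only 0.16, was most like PLPP1 at 0.0422 and MAPKAPK3 at 0.0454. These are the nearest patterns out of many genes on 6 arrays, which share the processing and the control arrays, and are given as a description.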

How the data were processed

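Gene expression was measured on 6 one-color Agilent arrays, 2 per group, all on 1 slide and in 1 scan. The authors deposited the files of Agilent's Feature Extraction 11.0 (per the labels), where the processed signal is a linear intensity corrected for background but left unscaled across arrays. A second deposited file, with log2 values per probe, has columns with identical sorted values and a median of 3.49. Each column correlated with log2 of the processed signal of its own array (r of 0.9968 or more). How its values were centred is not given in the sources used here.

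Control and outlier spots (245 to 463 per array) were left out, spots of a probe were averaged, log2 was taken and the 75th percentile of the array (35.1 to 58.0 as signal) was subtracted. Probes passed the filter if both arrays of some group read them well above background. Differences were tested with limma 3.58.1 in R 4.3.3 (version 1.17.8 of data.table; plots with matplotlib 3.10.9) on the 6 arrays together, and p-values were adjusted by Benjamini-Hochberg across the 18468 kept probes; the test had 3 residual and 2.47 prior degrees of freedom. A call needed an adjusted p under 0.05 and a 2-fold change, and adjusted p-values in the text come from this fit unless another is named. The code was tested on simulated data. The number of arrays limits the precision.

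Symbols came from RefSeq accessions (30275 probes matched, GRCh38.p14, used for names since the build of the array design differs). The text names all 6 members, up to 3 called genes with the largest change per list and precursor, and the 2 genes most like each member; some genes that these rules name are not reported here. The members and lists were chosen with earlier results of these data known. Same-numbered replicates correlated in their deviations at 0.109, 0.0081 and −0.0514, so the numbers were not taken as pairs. Alternatives were normexp background correction (on the median signal), other scalings, the authors' log2 values, other filters, fits and thresholds, the methods' t-test, other summaries of probes and spots, and leaving out each array.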

Additional observations from a re-analysis of the deposited data

How the results depend on the processing

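The number of arrays and dim signal set the limits here. With all arrays, 2 member probes were called for hsa-miR-205-5p against the control, 0 for hsa-miR-214-3p and 4 between the precursors. Leaving out 1 array at a time changed the number of calls over the whole array. The number of member probes called moved along with it, so its changes are not a result about the members. Against the control, the list genes called were also fewest and most where the calls of all probes were. Their range is therefore not a result about the lists. For hsa-miR-205-5p the fewest calls, of members and of all probes, came without its replicate 2 and the most without control replicate 1. The second LRP1 probe was among the latter, against a control array not above background. For hsa-miR-214-3p the most came without control replicate 2. Between the precursors the fewest came without hsa-miR-214-3p replicate 2. These fits give the lone array the spread of the remaining groups. The differences between the precursors stayed within −1.59 to −1.52 for INPPL1, 1.70 to 1.82 for VEGFA, −1.65 to −1.33 for PRKCE, −0.83 to −0.72 for LRP1, 0.65 to 0.95 for YES1 and −0.34 to −0.20 for SRC, and INPPL1 was not called without hsa-miR-214-3p replicate 2 (adjusted p = 0.0547). List genes called ran from 0 to 8 for hsa-miR-205-5p (5 with all arrays) and from 0 to 6 for hsa-miR-214-3p (2 with all arrays).

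For hsa-miR-205-5p, member probes called by limma fell to 0 with no filter on dim probes (INPPL1 adjusted p = 0.0549 and 0.0673). They fell to 1 with only the 4 arrays compared. Over all probes, 305 were called lower and 173 higher of 50599 with no filter, and 597 and 261 of 18468 with the 4 arrays. Member probes called fell to 0 with the methods' t-test after adjustment (INPPL1 at adjusted p = 0.15 and 0.184). That test called 0 of all probes in this comparison. At unadjusted p the methods' t-test called 2, as limma did after adjustment. For hsa-miR-214-3p, 1 was called, VEGFA in each case, with the 75th percentile over detected probes, intensity trend, normexp, the filter for all 6 arrays and unadjusted p. PRKCE between the precursors was not called with no filter (−1.49, adjusted p = 0.119), normexp (−1.01, adjusted p = 0.0649), the methods' t-test after adjustment (−1.49, adjusted p = 0.0512) or the replicate block (−1.49, adjusted p = 0.0549). With no fold limit LRP1 (−0.78) and YES1 (0.80) were called, and LRP1 also after scaling to the median (−1.0), while under normexp it was −0.17. List genes called with hsa-miR-205-5p became 0 (no filter, 4 arrays, t-test after adjustment), 2 (normexp), 3 (t-test at unadjusted p), 10 (median scaling) and 15 (no fold limit); with hsa-miR-214-3p they became 0 (no filter, 4 arrays, replicate block, t-test after adjustment), 4 (75th percentile over detected probes, trend, all 6 arrays, t-test at unadjusted p) and 6 (unadjusted p). Each setting that gave 0 list genes with hsa-miR-214-3p called 0 of all probes in that comparison. The replicate block changed no other call of a member.

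Small differences turned their sign. INPPL1 with hsa-miR-214-3p was −0.00733 under normexp. LRP1 with hsa-miR-205-5p was 0.29 as the mean over its probes and 0.075 under normexp. SRC with hsa-miR-214-3p was −0.0545 in the authors' table, −0.0558 after median scaling and from −0.0288 (without control replicate 1) to 0.25 (without control replicate 2) when 1 array was left out. The second LRP1 probe between the precursors was −0.0207 in the authors' table, −0.0424 under normexp, −0.0212 under quantile normalization, −0.18 after median scaling and from −0.21 to 0.31 without hsa-miR-205-5p replicate 1 or 2. Median scaling moves all probes of a comparison alike, so its turns of sign are not particular to a gene; it brought the median of all probes to −0.34 with hsa-miR-205-5p and −0.17 with hsa-miR-214-3p, and took the probes called lower and higher with hsa-miR-205-5p from 1486 and 764 to 2912 and 276; normexp gave 842 and 149. The median over the spots of a probe, chosen after seeing the data, changed no call of a member. The cause of the other changes was not tested.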
